A study of Mus musculus with 2 samples.

Results

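SR proteins and hnRNPs, the 2 main families of RNA-binding splicing regulators, were examined in mouse forebrain at embryonic day 11.5. The members were all protein-coding genes in both gene tables whose symbol is Srsf followed by a number or begins with Hnrnp. This rule gave 31 genes, 11 SR and 20 hnRNP, of 21474 protein-coding genes and 43346 annotated genes in all. The study measured total RNA by sequencing in a single group of 2 libraries, numbered by the labels as replicates 1 and 2. Each library came from pooled forebrains of mixed-sex embryos of the B6NCrl strain, 109 embryos for replicate 1 and 88 for replicate 2. The embryos had no stated genetic change or treatment, and the pools hide the variation between animals. Input per library was 10 ng of long RNA (over 200 nucleotides), made into cDNA by a SMART-seq protocol. With 1 group, no contrast between conditions was available, and the comparisons were between families, between transcripts of a gene and between the libraries. A mean ± SD over 2 libraries measures only the spread between these pools.

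SR proteins carry RNA recognition motifs and a tail rich in arginine and serine, and many of them bind exonic enhancers and help the splicing machinery to define an exon. hnRNPs coat nascent RNA, often bind intronic or exonic silencers, and also act in mRNA export, stability and translation. Genes of both families are known to control their own level by splicing: an excess of the protein can lead to inclusion of an exon with an early stop codon (a poison exon), to splicing within the 3′ UTR, or to a retained intron. Transcripts of the kinds with an early stop or a spliced 3′ UTR are typical substrates of nonsense-mediated decay, and those with a retained intron are often held in the nucleus.

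Annotated genes held 23165223 expected counts (estimated read counts that need not be whole) in replicate 1 and 33597022 in replicate 2. The forebrain marker list (Lhx2, Emx2, Six3 and Dlx1) was at 1 TPM (a level scaled by transcript length and by the library total) or more in 4 of 4 genes, as were the progenitor list in 5 of 5 and the newborn neuron list in 4 of 4. RNA of other cells was present: the 4 erythroid markers summed to 12735 and 13793 TPM in replicates 1 and 2, the 4 mesenchyme markers to 462 and 482, the 4 endothelial markers to 67.8 and 64.6, and the 3 macrophage markers to 33.8 and 30.5. No marker of these lists was at 0. Both families are expressed in most cell types, and the part of these cells in the levels below was not tested. In bulk tissue, fewer cells of a type and less RNA per cell cannot be told apart.

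The sequences below are those in which decay transcripts of both families, the models that the annotation marks for nonsense-mediated decay, meet a stop codon. They are shown here because they mark different routes to such a transcript, and their levels are given further below. Each runs from the first base of the exon (or, for Srsf2-204, of the model) to the stop codon, which is in capitals, 5′ to 3′ on the gene's strand, in GRCm38 coordinates from GENCODE M21. In the first 4 the exon is absent from the main coding transcript of the gene (the coding transcript with the highest mean TPM): Srsf6-201 at chr2:162932815-162932966 on the plus strand, Srsf3-201 at chr17:29039454-29039487 on the plus strand, Srsf4-203 at chr4:131884276-131884390 on the plus strand and Srsf11-206 at chr3:158024209-158024231 on the minus strand. The next 3 end at the same stop codon as the main coding transcript and carry spliced exons after it: Srsf2-204 at chr11:116852028-116852086, Hnrnpd-208 at chr5:99962545-99962612 and Hnrnpdl-201 at chr5:100036125-100036195, all on the minus strand. The last, Hnrnpll-203 at chr17:80044976-80045022 on the minus strand, is an hnRNP exon of the first kind.
Srsf6-201: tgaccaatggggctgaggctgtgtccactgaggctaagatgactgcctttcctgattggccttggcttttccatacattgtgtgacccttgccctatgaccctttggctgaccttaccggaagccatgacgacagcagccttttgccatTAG
Srsf3-201: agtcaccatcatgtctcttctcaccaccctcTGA
Srsf4-203: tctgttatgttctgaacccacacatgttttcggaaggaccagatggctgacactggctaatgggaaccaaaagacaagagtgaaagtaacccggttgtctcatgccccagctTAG
Srsf11-206: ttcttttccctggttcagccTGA
Srsf2-204: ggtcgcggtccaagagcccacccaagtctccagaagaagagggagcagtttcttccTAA
Hnrnpd-208: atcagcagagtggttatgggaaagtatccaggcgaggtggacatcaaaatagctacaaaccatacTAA
Hnrnpdl-201: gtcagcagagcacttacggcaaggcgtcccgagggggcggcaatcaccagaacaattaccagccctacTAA
Hnrnpll-203: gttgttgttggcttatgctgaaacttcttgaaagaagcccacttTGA
The Srsf6 and Srsf2 sequences were set by rule as those of the SR genes with the highest decay share, and the others were chosen for contrast after the values were seen.

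Both families stood far above the typical gene. The 11 SR genes summed to 4179.8 and 4360.3 TPM in replicates 1 and 2, 0.490% ± 0.0135 of all gene TPM (SD, n = 2). The 20 hnRNP genes summed to 8657 and 8653 TPM, 0.993% ± 0.00252 of all gene TPM. The hnRNP sum was 2.07 times the SR sum in replicate 1 and 1.98 times in replicate 2, or 2.03 ± 0.0612. The hnRNP family has more genes, and without Hnrnpk alone the ratio was 1.51 ± 0.0500, an alternative added after the data were seen.

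Gene by gene, the families lay on the same scale. The median SR gene was at 333 TPM and the median hnRNP gene at 249 TPM, against 20.0 TPM for the 12806 protein-coding genes at a mean of 1 TPM or more. On the log2(TPM + 1) scale the hnRNP median was below the SR median by 0.42 ± 0.17 (a difference of -0.42). By coding transcripts only the difference was -0.22 ± 0.26, smaller than its spread, so that the family medians had no clear order by that measure. At 100 TPM or more in both libraries were 10 of 11 SR genes and 17 of 20 hnRNP genes, where 6.99% of all protein-coding genes reached that level.

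**Figure D1:**
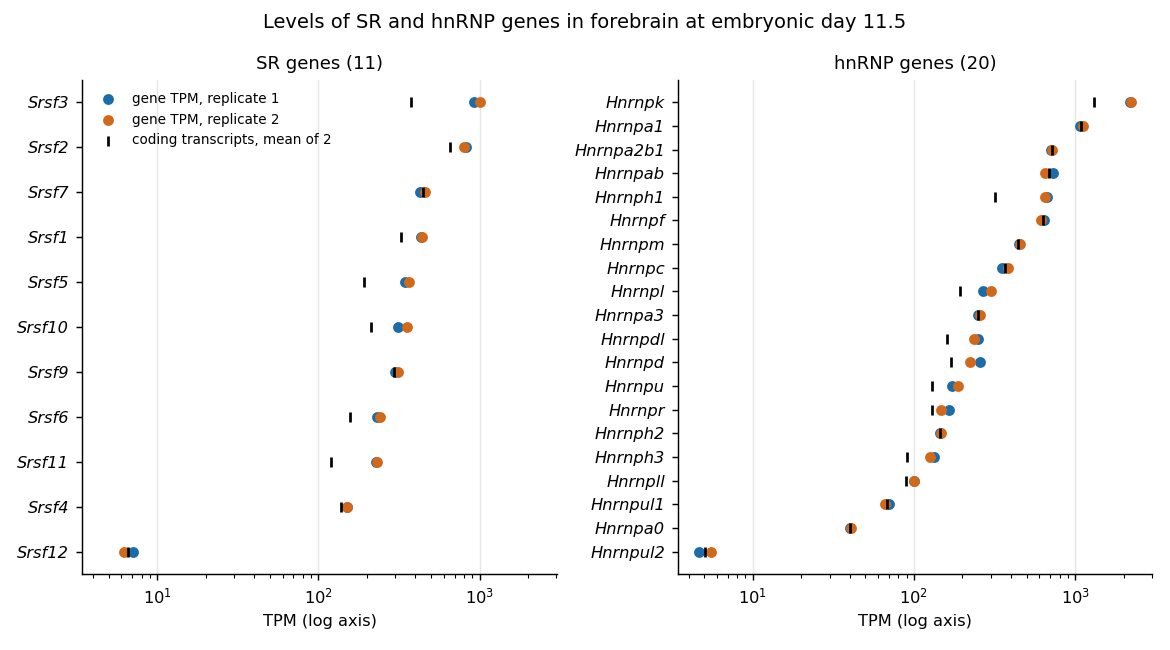
Gene level of each SR gene (left) and hnRNP gene (right) on a log TPM axis; blue and orange points are replicates 1 and 2 and the black tick is the mean TPM of coding transcripts. The replicates lie close together in every row, while the tick falls well to the left of the points for Srsf3, Srsf5, Srsf11, Hnrnpk and Hnrnph1.

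Among SR genes, Srsf3, the smallest SR protein, with roles in splicing, 3′ end choice and export, had the highest gene level, at 925 and 1005 TPM in replicates 1 and 2. The gene lies at chr17:29032628-29043373 on the plus strand (GRCm38). Srsf2 (SC35), which also acts in release of paused transcription, followed at 824 and 799 TPM. Srsf7, a shuttling SR protein with a zinc knuckle, was at 426 and 461 TPM and Srsf1 (SF2/ASF), the founding member of the family, at 435 and 438 TPM. Srsf3 and Srsf2 were above all other SR genes in both libraries, and the ranges of Srsf7 and Srsf1 overlapped. In the middle of the family, Srsf5 was at 344 and 363 TPM, Srsf10 at 311 and 356, and Srsf9, which has a very short arginine and serine tail, at 300.2 and 310.2. Srsf6 was at 230.1 and 240.1 TPM. Srsf11, which is known to promote inclusion of neuronal microexons, was at 227 and 231 TPM, and Srsf4, one of the longest SR proteins, at 151 TPM in both. Srsf12, a family member that can oppose other SR proteins in splicing assays, stood apart at the bottom with 7.05 and 6.19 TPM. The ratio of Srsf10, its closest relative and a splicing repressor when dephosphorylated, to Srsf12 was 50.8 ± 9.51. Of the 10 neighbouring pairs in this order, 3 overlapped between libraries: Srsf7 with Srsf1, Srsf5 with Srsf10 and Srsf6 with Srsf11.

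Among hnRNPs, Hnrnpk, a KH-domain protein that binds C-rich RNA, had the highest gene level, at 2192 and 2217 TPM. The gene lies at chr13:58391142-58403343 on the minus strand. The A/B type proteins, with paired RNA recognition motifs and a glycine-rich tail, formed the largest subgroup, with 7 genes and 3272 ± 36.5 TPM in sum. Its leading member Hnrnpa1 was at 1065 and 1121 TPM, Hnrnpa2b1, which also sorts RNA for transport, at 712 and 720.5, and Hnrnpab at 727 and 652. Hnrnpk was 2.02 ± 0.0573 times Hnrnpa1 by gene TPM and 1.20 ± 0.0478 times by coding TPM. The other A/B members were lower: Hnrnpd (AUF1), which binds AU-rich elements, was at 256 and 223 TPM, Hnrnpa3 at 249 and 255, Hnrnpdl at 249 and 234, and Hnrnpa0 at 39.9 and 40.5. Hnrnpa1 and its relative Hnrnpa0 differed 27.2 ± 0.706 fold, whereas the paralogs Hnrnpd and Hnrnpdl were at a ratio of 0.988 ± 0.0517, within the spread between libraries.

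The F/H proteins, which bind runs of G, summed to 1566 ± 32.4 TPM over 4 genes. Hnrnph1 was at 669.7 and 654 TPM, Hnrnpf at 641 and 616, Hnrnph2 at 145 and 146 and Hnrnph3 at 133 and 126. Hnrnph1 was above Hnrnpf by gene TPM in both libraries, and by coding TPM the order turned, with Hnrnpf 1.97 ± 0.0643 times Hnrnph1. Outside these groups, Hnrnpm was at 448 and 456 TPM, and Hnrnpc, which binds U tracts, at 351 and 382. Hnrnpl, which binds CA repeats, was at 267 and 301 TPM and its paralog Hnrnpll, best known from alternative splicing in T cells, at 100.5 and 100.2. Hnrnpl exceeded Hnrnpll 2.83 ± 0.246 fold. Hnrnpu (SAF-A), an RNA-dependent chromatin scaffold protein, was at 172 and 188 TPM, its relative Hnrnpul1 at 70.1 and 66.0, and Hnrnpr at 165 and 147. Hnrnpul2 was lowest of all 31 members, at 4.65 and 5.49 TPM, and Hnrnpul1 was 13.5 ± 2.17 times higher. Overlap between libraries was seen in 4 of 19 neighbouring pairs of this order.

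The families differed in which transcripts these levels were made of. A coding share is the TPM of a gene's protein-coding transcripts over the summed TPM of all its transcripts, with classes from GENCODE M21. The libraries were of total RNA, and these shares do not tell reads of RNA not yet spliced from those of a retained-intron transcript. The median coding share was 74.9% ± 1.99 over SR genes and 98.2% ± 0.307 over hnRNP genes (SD over libraries, n = 2), and 98.5% ± 0.280 over protein-coding genes at 1 TPM or more. Retained-intron and decay transcripts together took a median of 19.0% ± 2.24 of SR gene TPM and 0.592% ± 0.00427 of hnRNP gene TPM. The difference of these medians was 20.0 percentage points in replicate 1 and 16.9 in replicate 2, or 18.4 ± 2.24. As a share of family TPM, retained-intron transcripts held 19.9% ± 0.472 of SR and 12.1% ± 0.659 of hnRNP TPM, and decay transcripts 8.08% ± 0.908 and 1.85% ± 0.0615. Over protein-coding genes at 1 TPM or more these shares were 5.64% ± 0.170 and 2.17% ± 0.0268.

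**Figure D2:**
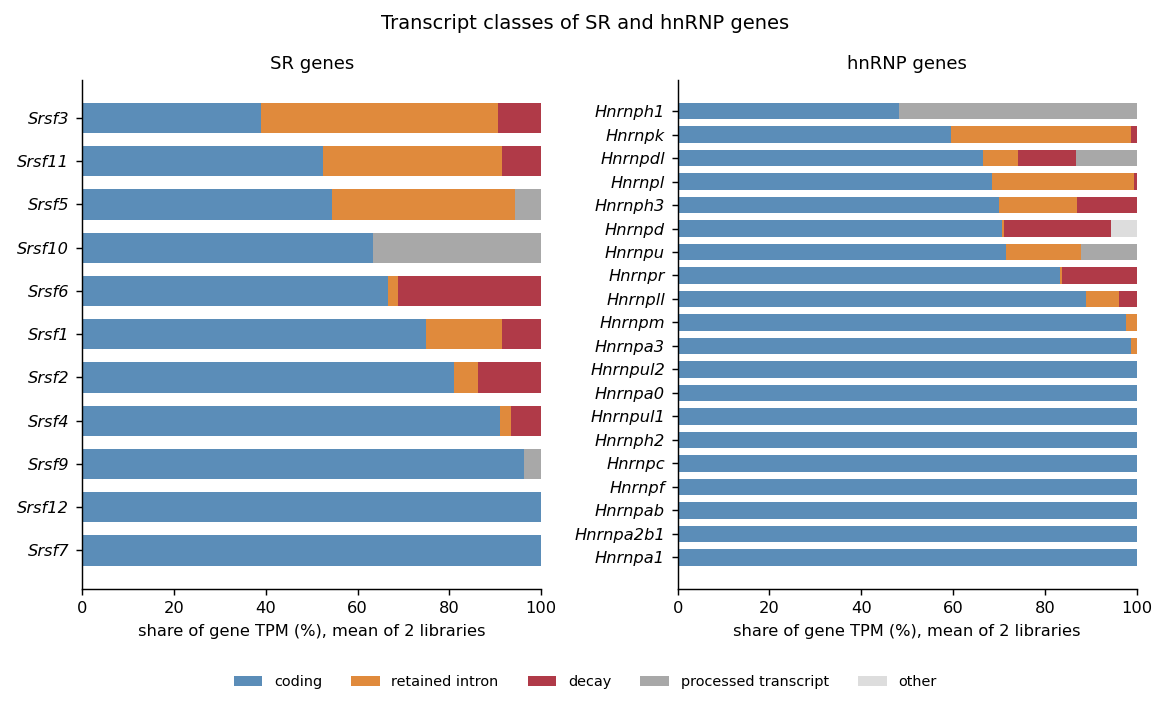
Share of gene TPM held by each transcript class, as stacked bars of the mean over 2 libraries, for SR genes (left) and hnRNP genes (right), each ordered by coding share. Bars are wholly coding for 2 of 11 SR genes and 9 of 20 hnRNP genes; grey in Srsf10 and Hnrnph1 is the processed transcript class.

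Both the annotation and the unit bear on this difference. Only 7 of 11 SR and 10 of 20 hnRNP genes had a retained-intron or decay transcript in the tables, so that the share of the others is 0 by construction. Over these 7 and 10 genes the medians were 33.4% ± 2.38 and 18.7% ± 0.671, and the difference was 14.7 ± 1.71 points. As a share of their summed TPM, retained-intron transcripts held 26.7% ± 0.893 in SR and 24.8% ± 1.27 in hnRNP genes, nearly alike. By expected counts the retained-intron shares were 19.8% ± 0.696 and 9.08% ± 0.540. Decay transcripts held 10.8% ± 1.11 and 3.77% ± 0.114 of the summed TPM. The 5819 protein-coding genes at 1 TPM or more with such a transcript had a median of 10.6% ± 0.595, and the 839 of them at 100 TPM or more had 5.23% ± 0.273. By shares of expected counts, in which short models weigh less, the coding medians were 91.4% ± 0.195 for SR and 99.5% ± 0.109 for hnRNP genes, and the difference in retained-intron plus decay share was 6.74 ± 0.517 points. The SR share was the higher one by either unit and in both libraries. Of 282 transcripts that GENCODE M21 lists for the members, 66 were not in the tables, among them 24 retained-intron and 9 decay models in 11 genes, including Srsf7, Srsf9, Hnrnpa1 and Hnrnpa2b1. Their shares were not analysed here.

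A retained-intron plus decay share of 20% or more in both libraries was found in 5 of 11 SR genes (Srsf3, Srsf11, Srsf5, Srsf6 and Srsf1) and 4 of 20 hnRNP genes (Hnrnpk, Hnrnpl, Hnrnph3 and Hnrnpd). Among protein-coding genes at 1 TPM or more, 13.5% reached it, and among those with such a transcript, 29.7%. Among the members with such a transcript, these were 5 of 7 SR and 4 of 10 hnRNP genes. On either denominator the SR genes were above the matching background share, and the hnRNP genes were close to it. These backgrounds were not matched for gene level. Srsf2 (20.6% and 17.4%) and Hnrnpdl (20.7% and 19.6%) passed in replicate 1 only. By expected counts 3 SR genes and 0 hnRNP genes passed, and the SR genes were Srsf3, Srsf5 and Srsf11. The share of all protein-coding genes that pass by expected counts was not computed, so these counts have no background to be read against.

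**Figure D3:**
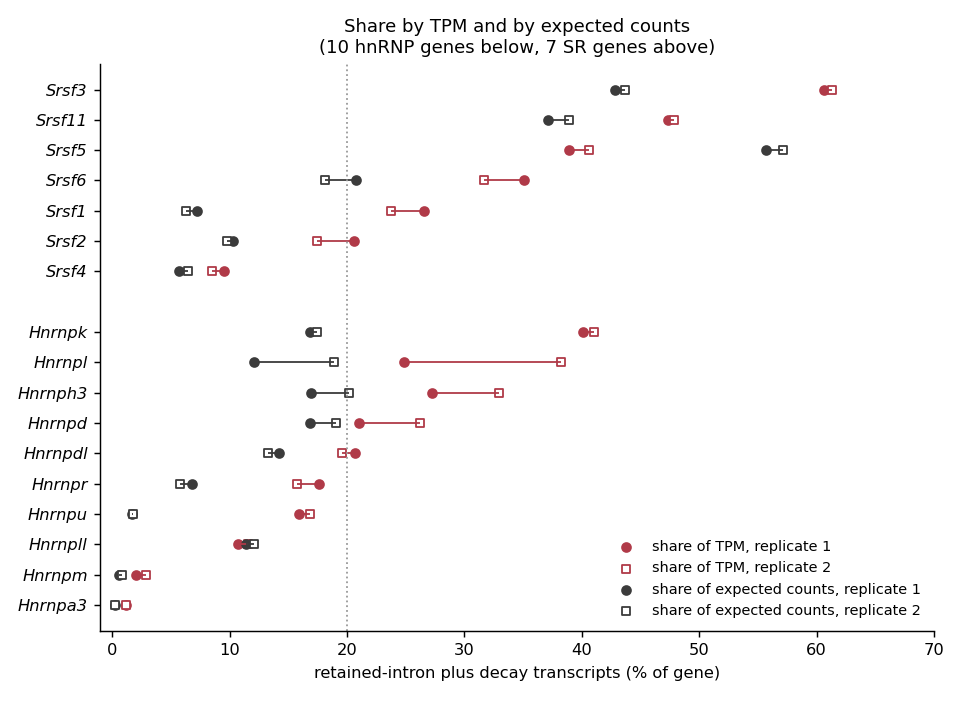
Retained-intron plus decay share of the 17 members with such a transcript, by TPM (red) and by expected counts (dark), with replicate 1 as filled circles, replicate 2 as open squares and a dotted line at 20%. The count share lies left of the TPM share for 6 of 7 SR and 9 of 10 hnRNP genes; Srsf5 and Hnrnpll go the other way.

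Srsf3 had the highest share by TPM, 60.6% and 61.3% in replicates 1 and 2. By counts its share was 42.8% and 43.7%, below that of Srsf5 at 55.7% and 57.1%. Its leading transcript by TPM was the retained-intron model Srsf3-205, at 430 and 474 TPM, or 46.8% ± 0.502 of the gene, against 365 and 389 TPM for its only coding transcript Srsf3-202. Srsf3-205 is short in the tables (910 nucleotides, against 2566 for Srsf3-202) and has 2110 nucleotides in GENCODE M21, the source of its class, so that its TPM and its lead depend on the shorter model. By counts the order was reversed, with 22.3% ± 0.291 for Srsf3-205 and 56.7% ± 0.602 for Srsf3-202. The poison exon model Srsf3-201, whose sequence is shown above, held 88.8 and 93.4 TPM, 9.44% ± 0.213 of the gene and 10.1% ± 0.205 of its counts. By coding TPM Srsf3 was at 377 ± 17.3 and ranked below Srsf2 (657 ± 3.59) and Srsf7 (443.5 ± 25.02), and Srsf2 was 1.74 ± 0.0704 times Srsf3.

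Srsf5 held nearly all of its share in a single retained-intron transcript. Srsf5-212 was at 131 and 145 TPM, 39.0% ± 1.16 of the gene by TPM and 55.1% ± 0.913 by counts. This was the only SR gene whose share was higher by counts, and Srsf5-212 is long, at 2720 nucleotides. Of these, 1229 lie outside the exons of the gene's coding transcripts, so that reads from the intron itself can be assigned to it. Srsf11 divided its share of 47.3% and 47.9% over 7 retained-intron and 3 decay models, led by Srsf11-208 at 35.5 and 39.0 TPM, which has 1988 of 2415 nucleotides outside coding exons. Srsf11, a more distant member of the family, had 2 different exons with an early stop: the one shown above, in Srsf11-206 and Srsf11-210, and another in Srsf11-212.

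Srsf6 held its share in decay rather than in retained introns. The decay transcript Srsf6-201 was at 75.1 and 71.8 TPM, 31.3% ± 1.93 of the gene by TPM and 17.4% ± 1.34 by counts, and its deposited intervals overlapped between libraries. Its early stop lies in exon 3 of 7, which is 268 bases long, 152 bases after that exon begins. A minor coding model, Srsf6-202, at under 1 TPM in both libraries, shares part of this exon. Srsf2 had most of its decay signal in Srsf2-204, at 130.1 and 91.4 TPM, 13.6% ± 3.07 of the gene by TPM and 4.39% ± 1.09 by counts. Srsf2-204 uses the normal stop and adds spliced exons behind it, and all its bases lie within exons of coding transcripts, so that only reads across its splice junctions can be unique to it. For Srsf1, the retained-intron model Srsf1-203 held 14.6% ± 2.54 by TPM and 3.73% ± 0.769 by counts, and it too has no base outside coding exons. Srsf4 was mostly coding, at 91.0% ± 0.769, and Srsf7 and Srsf12 had only coding transcripts in the tables.

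Among hnRNPs, Hnrnpk had the highest share by TPM, 40.1% and 41.0%. By counts its share was 16.8% and 17.4%, and the mean share by counts was highest for Hnrnph3, at 18.6%. Its main contributor was the retained-intron model Hnrnpk-217, at 507 and 579 TPM, which is 874 nucleotides long with 78 outside coding exons. It held 24.6% ± 2.11 of the gene by TPM and 11.7% ± 0.934 by counts. Hnrnpl followed with 24.9% and 38.2%, the widest gap between libraries among the members. It came from the 672-nucleotide model Hnrnpl-210, which was at 42.2 TPM in replicate 1 and 85.6 TPM in replicate 2, with deposited intervals that did not overlap. Hnrnph3 had 27.2% and 32.9%, split between the decay transcript Hnrnph3-204 (13.1% ± 0.429) and retained introns. Hnrnpd had 21.03% and 26.2%, nearly all of it in the decay transcript Hnrnpd-208, at 50.9 and 55.5 TPM.

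The 9 hnRNP genes with only coding transcripts in the tables were Hnrnpa1, Hnrnpa2b1, Hnrnpab, Hnrnpf, Hnrnpc, Hnrnph2, Hnrnpul1, Hnrnpa0 and Hnrnpul2. For Hnrnpa1 and Hnrnpa2b1 decay models in the newer annotation are among those not in the tables. A further class, the processed transcript, has no annotated open reading frame and is neither coding nor marked for decay. It held 51.9% ± 2.15 of Hnrnph1 TPM over 15 models (42.6% by counts) and 36.6% ± 0.535 of Srsf10 TPM over 6 models (8.63% by counts). With this class added to the retained-intron and decay classes, the difference between the family medians was 23.3 ± 2.30 points.

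**Figure D4:**
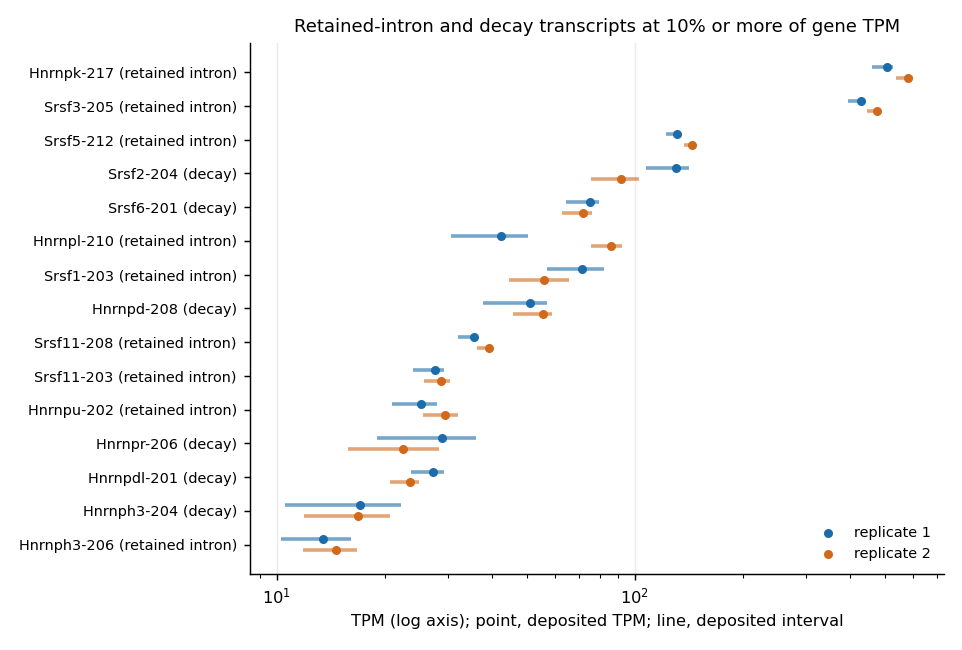
TPM of the 15 retained-intron and decay transcripts that hold 10% or more of their gene's mean TPM, on a log axis, with the deposited TPM as points and the deposited interval as lines, for replicate 1 (blue) and replicate 2 (orange). The intervals of 6 of the 15 do not overlap between libraries, among them Hnrnpl-210, higher in replicate 2, and Srsf2-204, higher in replicate 1. Of all transcripts of protein-coding genes at a mean of 5 TPM or more, 14.4% do not overlap, a share not matched for transcript level. A point can lie outside its line, as for Srsf5-212 in replicate 1 (131.34 TPM, interval 122.0 to 130.9).

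The stop codons of the decay transcripts fell in different places in the families. SR genes had 12 decay transcripts in 7 genes, with 364 and 324 TPM in sum, and hnRNP genes had 11 in 7 genes, with 156 and 164 TPM. In SR genes, exons absent from the main coding transcript carried the stop in 7 transcripts of 4 genes (Srsf3, Srsf4, Srsf6 and Srsf11), which held 194 ± 4.64 TPM or 56.5% ± 3.33 of the family's decay TPM. In hnRNP genes, such exons were found in 2 transcripts (Hnrnpl-213 and Hnrnpll-203), which held 5.56 ± 1.92 TPM or 3.46% ± 1.08. The SR value exceeded the hnRNP value in both libraries. Srsf3-201 (91.1 TPM) and Srsf6-201 (73.5 TPM) held most of it, and the spread between libraries does not measure that between genes. Of the decay models in GENCODE M21, 3 of SR and 6 of hnRNP genes were not in the tables, and their stops were not placed.

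The stop of the main coding transcript, followed by further exons, was the route of Srsf2 alone among SR genes (32.4% ± 5.27 of SR decay TPM). Among hnRNPs it was that of the paralogs Hnrnpd and Hnrnpdl, with 49.2% ± 1.28 of hnRNP decay TPM, of which Hnrnpd-208 and Hnrnpdl-201 are shown above. A different stop within an exon shared with the main coding transcript accounted for 11.0% ± 1.94 in SR genes (Srsf1) and 44.4% ± 0.721 in hnRNP genes (Hnrnpd-205, Hnrnph3-204, Hnrnpk-203 and Hnrnpr-206). An extended exon carried the stop in Srsf5-208, listed at 0 TPM in both libraries, and in Hnrnpdl-205, with 3.03% ± 0.529 of hnRNP decay TPM. In all 23 decay transcripts the stop lay upstream of the last exon junction, by 67 to 860 bases. This is a property of the annotated models and not a result of these libraries. The lengths of Srsf3-201 in the tables (1919 nucleotides) and in GENCODE M21 (2594) differ, and its exon is given from the latter.

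**Figure D5:**
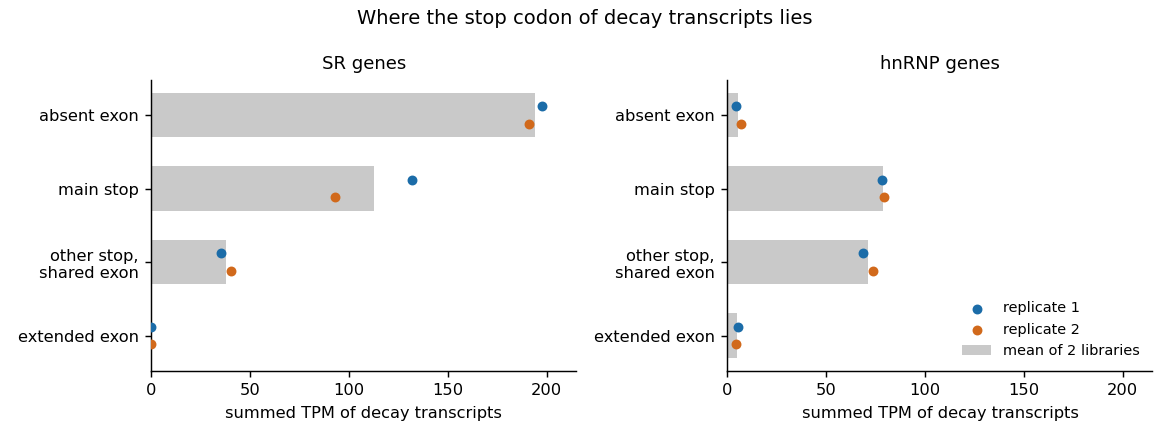
Summed TPM of decay transcripts by the place of their stop codon, for SR genes (left) and hnRNP genes (right); bars are means of 2 libraries and points are replicates 1 and 2. The absent-exon bar is the longest for SR genes, at 194 TPM, and reaches 5.56 TPM for hnRNP genes, where the main-stop and other-stop bars lead.

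Between the libraries, gene levels of both families were close. After scaling of expected counts by the TMM method, 0 of 31 members had 1 library 25% or more above the other, by edgeR's factors as by those of DESeq2. Among all genes with 10 or more counts 26.0% did so, and among genes with 1000 or more counts, as most members have, 2.36%. The largest ratios of replicate 1 to replicate 2 were those of the lowest members, 1.22 for Srsf12 and 0.848 for Hnrnpul2. Counts behind a member ranged from 227 to 54516 in replicate 1 and from 270.0 to 80411 in replicate 2. Of the SR genes, 10 of 11 were higher in replicate 2 and 1 in replicate 1, with a median log2 ratio of -0.07, and of the hnRNP genes 11 and 9, with a median of -0.00460. There is no test of these counts, and each ratio lies within that limit. The direction over all genes was not counted, so that a shift common to all genes cannot be told apart.

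Single transcripts were compared by their deposited intervals. Of 131 member transcripts at a mean of 5 TPM or more, 26 had deposited intervals that did not overlap between libraries (12 of 43 in SR and 14 of 88 in hnRNP genes), where 14.4% of all 15518 such transcripts of protein-coding genes did so. This background was not matched for transcript level. Of the 26, 21 were higher in replicate 2 and 5 in replicate 1. The direction over all such transcripts was not counted, so that a shift common to all transcripts cannot be told apart. Besides Hnrnpl-210 and Srsf2-204, the 26 included short coding models such as Hnrnpd-210 (46.7 and 23.7 TPM), Hnrnpm-204 (52.8 and 87.9) and Hnrnpk-213 (19.95 and 2.64), which were chosen after their values were seen. They also included main coding transcripts with small shifts, such as Srsf7-201 (426 and 461 TPM). The intervals describe uncertainty within a library only, and their level is not stated. They need not hold the deposited TPM: Srsf7-201 in replicate 1 had 425.81 TPM and an interval of 403.5 to 417.0. The TPM of the processed transcripts Hnrnph1-204 (31.3 and 0.0200 TPM) and Hnrnph1-205 (31.6 and 70.9) differed in opposite directions, but the intervals of each overlapped between libraries.

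Genes that act on or beside these families were measured as lists. SR proteins are phosphorylated by SRPK and CLK kinases, of which 6 of 7 were at 1 TPM or more in both libraries. Clk1 was highest, at 119 and 125 TPM, followed by Clk4 at 101 and 112 and Srpk1 at 95.9 and 97.25, and Srpk3, a kinase known from muscle, was at 1.38 and 0.840. A retained-intron plus decay share of 20% or more was found in 4 of the 7 (Clk1 63.9% ± 5.71, Clk2 52.7% ± 1.53, Clk4 47.2% ± 0.244 and the low Srpk3). The background given above was 13.5%, and 29.7% among genes with such a transcript. The import receptors of SR proteins, Tnpo3 and Tnpo1, were at 103 and 93.05 TPM and at 50.45 and 45.9. All 14 SR-related genes were detected, led by Tra2b (373 and 395 TPM), Srrm2 (362 and 346) and Rnps1 (329.5 and 328) and with Scaf8 lowest (20.9 and 19.1). Of these 14, 1 had a share of 20% or more, and Tra2b, which also has a known poison exon, had 6.91% ± 0.838.

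The 15 hnRNP family genes listed under other symbols were all detected, led by Pcbp1 (453 and 461 TPM), Ewsr1 (426 and 402) and Rbm3 (369 and 390.4), with Taf15 lowest (11.8 and 10.8), and 1 of them, Rbmx, had a share of 20% or more, with 30.5% ± 1.27. All 8 genes of splice site recognition were detected, from Snrpa (308 and 289.8), Sf3b1 (252 and 278) and Snrpc (249 and 250.0) down to Snrnp70 (40.8 and 36.6), and 1 of them, Sf3b1, had such a share. The 15 genes of nonsense-mediated decay and the exon junction complex were all detected, from Eif4a3 (368 and 325), Magoh (169 and 194) and Rbm8a (101 and 102) down to the decay factor Upf2 (10.8 and 11.3). Of these 15, 2 had such a share, Smg5 and Smg9. In these lists and the SR-related list, the counts were near or below the background of 13.5%. Steady-state levels were measured, so that a low level of a decay transcript does not tell how much of it was made.

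Some values rest on reads that can belong to more than 1 gene. Annotated genes on the opposite strand overlapped 11 members (Srsf1, Srsf2, Srsf4, Hnrnpk, Hnrnpab, Hnrnpf, Hnrnpl, Hnrnpd, Hnrnpu, Hnrnpr and Hnrnph3), and the handling of strand is not given in the sources used here. Genes on the same strand overlapped 3 (Hnrnpm, Hnrnpa3 and Hnrnpul2). Among the opposite-strand genes were Mettl23 and Mfsd11 for Srsf2 and Rmi1 for Hnrnpk. Expected counts were whole in both libraries for 12 of 31 members, and the others held fractions, as arise when reads fit several genes. Overlaps and whole counts were not counted over all genes, so they are not read as particular to the members. The annotated pseudogenes with a member-like symbol were near 0: Hnrnpa1l2-ps at 0 and 0.130 TPM and Hnrnpa1l2-ps2 at 0.0900 and 0.0700.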

How the data were processed

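Total RNA of 2 mouse forebrain libraries was analysed from the authors' tables per gene and per transcript. Alignment was to mm10 with GENCODE M4, per the deposited text notes. Aligner, quantifier and strand setting were not given in the sources used here. Expected counts, as deposited, are estimates that divide reads among transcripts, the deposited TPM and FPKM are scaled by length and depth, and the deposited interval bounds are a signal on the TPM scale whose level is not stated. Classes and coordinates came from GENCODE M21 (GRCm38), matched by identifier: 211 of 212 member transcripts matched, 192 with the same length. Expected counts were rounded and scaled with TMM in edgeR 4.0.16 (R 4.3.3), with DESeq2 1.42.0 as an alternative, a prior of 0.5 counts and a minimum of 10 counts, and the ratios and shares were tested on simulated data. Shares used Python 3.11.15 and pandas 2.3.3. Depth was 23165223 and 33597022 expected counts. Named members were, by rule, the 4 highest and 2 lowest of each family and the 4 with the highest retained-intron plus decay share. Members, lists and rules were chosen with earlier results of these data known. No p-value was computed, since there was 1 group. Protein sequences were not used here. Of the gene lists, 2 genes are not reported here.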

Additional observations from a re-analysis of the deposited data

How the results depend on the processing

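The family comparisons given here kept the sign of their mean value under the alternatives run. The difference of family median levels by coding transcripts only was smaller than its spread (-0.22 ± 0.26), so its direction was not clear. Single pairs turned: by coding instead of gene TPM, Hnrnpf over Hnrnph1 went from 0.949 to 1.97 and Srsf2 over Srsf3 from 0.842 to 1.74. The hnRNP to SR ratio of summed TPM was 2.41 by coding transcripts only and 1.51 without Hnrnpk (both chosen after seeing the data), and 1.98 to 2.07 when 1 replicate was left out. The difference of family median levels was -0.22 by coding transcripts only (chosen after seeing the data), -0.12 as a difference of means over members, and -0.54 to -0.30 when 1 replicate was left out. The median coding share of SR genes was 91.4% by expected counts and 70.7% over genes at 10 TPM or more, with 73.5% to 76.3% when 1 replicate was left out; for hnRNP genes the values were 99.5%, 97.5% and 98.0% to 98.4%. The SR minus hnRNP difference in retained-intron plus decay share was 6.74 points by expected counts, 23.3 with processed transcripts added, 20.9 over genes at 10 TPM or more, 2.67 for retained introns alone, 6.54 for decay alone, 14.0 as a share of family TPM, 14.7 over members with such a transcript (chosen after seeing the data) and 16.9 to 20.0 when 1 replicate was left out. The number of members at 20% or more was 9, against 3 by expected counts and 13 with processed transcripts added. It was 14 at 10% and 5 at 30%, and 9 to 11 when 1 replicate was left out. The share over all genes was computed for the 20% limit by TPM only, so the other counts have no background. The number of members with 1 library 25% or more above the other was 0 under each of the 4 alternatives run. Transcripts with no class leave coding shares as they are. No paired analysis was possible because there was a single group. Transcript models of under 1000 nucleotides, 8 of the 15 retained-intron and decay transcripts at 10% or more of their gene, are among the limits of the shares by TPM.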
